A study of Mus musculus with 6 samples.

Results

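Wnt proteins are secreted lipid-modified ligands that bind Frizzled receptors and Lrp5 or Lrp6 on the receiving cell, which stabilises beta-catenin and switches on genes through the Tcf and Lef factors. Secreted proteins of the Sfrp and Dkk families and Wif1 hold the pathway in check, R-spondins acting through Lgr receptors strengthen it, and genes such as Axin2, Nkd1 and Notum are induced by it and feed back on it. In the olfactory bulb, the forebrain relay on which axons from the nasal epithelium end, Wnt signalling is known for roles in axon targeting and in the making of new neurons. The gene set holds every gene of the table whose mouse symbol begins with Wnt or Dkk and a digit, or with Fzd or Sfrp, and 20 further named components. It came to 57 of the 22095 genes, with 19 ligands, 12 receptors, 6 secreted Wnt binders, 4 Dkk genes, 5 R-spondin and Lgr genes, and 11 intracellular, nuclear or feedback genes.

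The tissue was olfactory bulb of 3 outbred ICR mice, numbered 1037, 1038 and 1039, whose left naris was closed with a silica gel plug at postnatal day 30 and whose bulbs were taken 60 days later. Left bulbs lay on the plugged side and right bulbs of the same mice on the open side, and the groups share strain, age and surgery. All 3 mice carried a plug, so a difference between sides that unplugged mice would also show cannot be told apart from one that came with it. Polyadenylated RNA was read to 14571453 to 15590938 counts per library, and a count of 0, which allows up to 3 counts, corresponded to at most 0.192 to 0.206 CPM (counts scaled to a common library total). These limits cover counting error only.

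The library labelled left 1038 went against its label. It held Dlx1, a transcription factor of bulb interneurons, at 0.618 CPM, against 304 to 358 CPM in the other 5 libraries, and Cbln3, a gene of cerebellar granule cells, at 1217 CPM, against at most 1.10 CPM. Dlx2, S100a5 and Stoml3, markers of interneurons and sensory neurons, were at 0 in it. Folr1, a marker of choroid plexus, was at 0 too. It had only 1 read in left 1039, right 1038 and right 1039, 3 in right 1037 and 25 in left 1037. Ttr, also of choroid plexus, had 20.2 CPM in the library labelled left 1038, inside the 5.71 to 171 CPM of the others. Cdhr1, which marks the projection neurons of the bulb, had 0.755 CPM in this library, against 663 to 830 CPM in the other 5. Tbx21 and Tbr1, 2 more such markers, had 0.137 and 1.03 CPM, against 36.7 to 73.6 and 19.3 to 22.2 CPM. Other markers of these neurons were kept. Slc17a7 had 541 CPM, against 569 to 648 CPM, Reln 435, against 482 to 786, and Eomes 66.4, against 185 to 210. Gng13, listed for sensory neurons, had 150 CPM, against 6.84 to 37.1 CPM. The library labelled left 1038 is therefore shown apart, and left is set against right over 5 libraries, 2 left and 3 right. The mouse is the replicate in each group.

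On the plugged side 4 members rose and 5 fell, out of 47 with enough reads to be tested. The secreted inhibitors Sfrp5 and Wif1 fell most, the Sfrp1 and Sfrp2 inhibitors and the target gene Axin2 rose, and the ligand Wnt10b and the receptors Fzd3 and Lgr5 fell. Tcf7l2 rose in this fit, a call lost in 7 of 12 alternative fits of these libraries. The call of Wnt10b was lost in 4 of the 12, and those of Axin2 and Sfrp2 in 3 each. Calls were made with edgeR's quasi-likelihood test at a Benjamini-Hochberg adjusted p under 0.05 over all genes tested. The background was 9.62% of 14412 genes, with 3.16% called higher and 6.46% called lower, and among the 47 members 19.1% were called. The members were chosen with earlier results of these data known, which already gave Sfrp5 and Wif1, so this share is no independent support. With the mouse as a block, 3 members rose and 6 fell, beside 3.41% and 7.36% of all genes. The median log2 fold change (left over right) was 0.10 over the 47 members and 0.005 over all genes tested. Of the 10 members not tested, Wnt3a, Wnt8a, Wnt8b and Dkk4 had a count of 0 in all 6 libraries, and Wnt1, Wnt2, Wnt11, Wnt16, Dkk1 and Dkk2 had few reads.

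Sfrp5 and Wif1, the members that fell most, and Sfrp2 and Axin2, which rose, are shown with the bases before their RefSeq start on GRCm38.p6, since these pairs moved in opposite directions. Sequences run 5′ to 3′ on the gene's strand, and capitals mark a GC box (GGGCGG) or the core of a cyclic AMP response element (TGACG), on either strand. The windows are chr19:42202253-42202502 on the minus strand for Sfrp5, and on the plus strand chr10:121033754-121033959 for Wif1, chr3:83766071-83766320 for Sfrp2 and chr11:108920099-108920348 for Axin2. The window of Wif1 stops 44 bases before its RefSeq start, where the GENCODE gene begins.
Sfrp5: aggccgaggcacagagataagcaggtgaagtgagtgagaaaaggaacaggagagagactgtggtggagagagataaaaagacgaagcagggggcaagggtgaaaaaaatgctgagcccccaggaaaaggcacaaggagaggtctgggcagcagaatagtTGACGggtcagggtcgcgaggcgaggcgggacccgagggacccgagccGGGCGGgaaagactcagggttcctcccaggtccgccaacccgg
Wif1: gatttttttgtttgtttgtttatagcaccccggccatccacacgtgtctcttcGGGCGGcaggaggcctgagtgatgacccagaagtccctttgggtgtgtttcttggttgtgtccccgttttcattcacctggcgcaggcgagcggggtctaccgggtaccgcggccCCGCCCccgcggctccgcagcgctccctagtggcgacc
Sfrp2: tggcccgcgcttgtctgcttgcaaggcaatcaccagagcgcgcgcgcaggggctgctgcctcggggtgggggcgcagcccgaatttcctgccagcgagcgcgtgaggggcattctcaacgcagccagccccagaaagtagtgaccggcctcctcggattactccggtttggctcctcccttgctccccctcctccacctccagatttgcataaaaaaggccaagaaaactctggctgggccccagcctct
Axin2: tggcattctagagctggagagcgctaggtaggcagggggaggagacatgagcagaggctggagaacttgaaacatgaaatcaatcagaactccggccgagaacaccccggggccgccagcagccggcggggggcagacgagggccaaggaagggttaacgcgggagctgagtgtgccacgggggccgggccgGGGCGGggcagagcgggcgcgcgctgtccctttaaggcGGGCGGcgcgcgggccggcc

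All 4 windows are rich in G and C, at 59.6% for Sfrp5, 61.7% for Wif1, 63.6% for Sfrp2 and 69.2% for Axin2. The GC box was found once before Sfrp5, at 2 places each before Wif1 and Axin2, and not before Sfrp2. It occurs in 32.7% of all 32851 windows of 250 bases in the RefSeq promoter table, and in 32 of the 46 windows of members there. The core TGACG occurs once before Sfrp5, in 17.8% of all windows and in 6 of the 46 windows of members. Those windows belong to Ctnnb1, Sfrp5, Tcf7l2, Wnt10b and Wnt11. The full element TGACGTCA, which contains that core, occurs in none of the 4 and in 1.55% of all windows. The Tcf and Lef motifs CTTTGAT and CTTTGAA were not among these letters, and occur in 3.21% and 4.46% of all windows. Of 37 members with 46 windows in that table, Wnt5b and Wnt11 had CTTTGAT and Dkk1 had CTTTGAA.

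Levels of different genes were compared as CPM per kb of exon, where the exon length is the union of a gene's exons in the GENCODE annotation. Beta-catenin itself, Ctnnb1, stood far above every other member, with a mean over the 5 libraries of 92.4 CPM per kb. Among secreted binders Frzb, also known as Sfrp3, led with 22.1 CPM per kb, ahead of Sfrp1 with 6.49. Lgr5 and Lgr4, receptors for R-spondins, followed Frzb with 17.4 and 14.2 CPM per kb, and their ranges over the 5 libraries overlapped. The leading ligands were Wnt7a with 12.7 and Wnt5a with 6.34 CPM per kb, whose ranges did not overlap, and Wnt6 came next with 3.99. The leading receptors were the co-receptor Lrp6 with 6.34 and then Fzd2 with 3.93, Fzd1 with 3.89 and Fzd7 with 3.73 CPM per kb, and the ranges of these 3 Frizzled genes overlapped. Of the Dkk genes only Dkk3 passed the filter, with 8.34 CPM per kb. Dkk3 is a divergent Dkk family member. Sfrp5 and Wif1 were low throughout, with means of 1.20 and 1.31 CPM per kb.

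**Figure D1:**
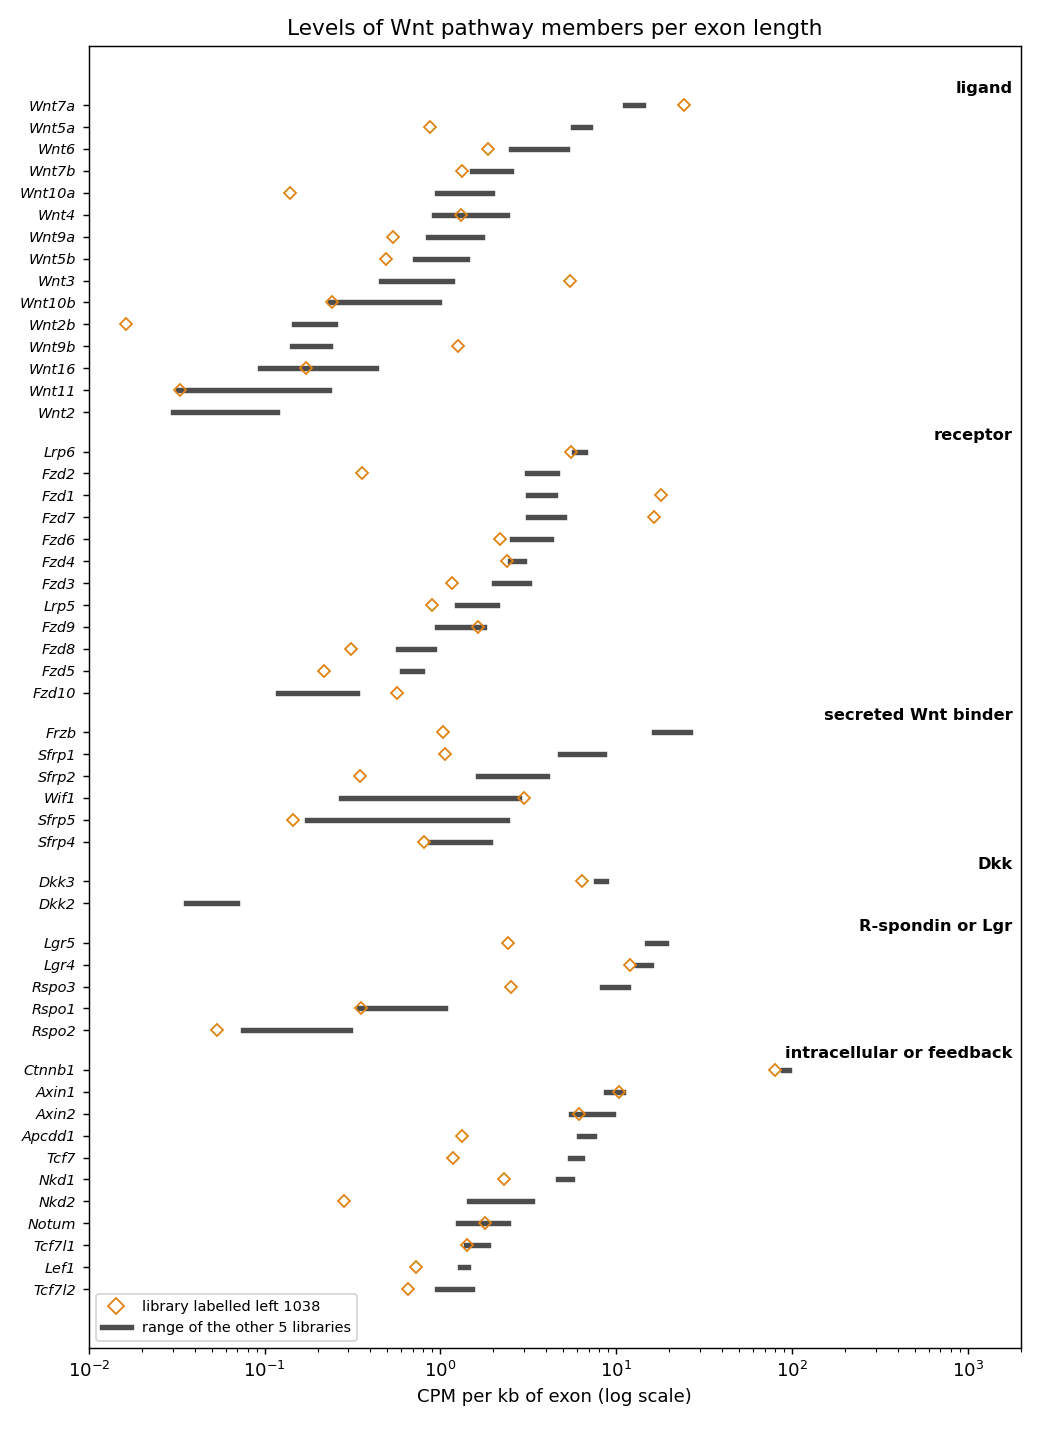
Level of each member detected in all 5 libraries in CPM per kb of exon (log axis), by role, as the range over the 5 libraries (bars) and the library labelled left 1038 (diamonds, where above 0). Ctnnb1 leads with a mean of 92.4 CPM per kb, and the diamonds of Wnt3, Wnt9b, Fzd1 and Fzd7 lie to the right of their bars while those of Frzb, Fzd2 and Wnt5a lie to the left.

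Sfrp5 (ENSMUSG00000018822, chromosome 19, 42197971 to 42202252 on GRCm38), a secreted Frizzled-related inhibitor, had 0.648 and 0.332 CPM in left 1037 and left 1039, against 2.89, 4.57 and 3.00 CPM in right 1037, right 1038 and right 1039. Both left libraries lay below every right library, on 10 and 5 reads on the left and 45, 69 and 44 on the right. Left bulbs averaged 0.490 ± 0.223 CPM (SD, n = 2), against 3.49 ± 0.941 CPM in right bulbs (SD, n = 3). Sfrp5 fell by 2.89 on the log2 scale (SE 0.42, adjusted p = 0.00338), a left level 0.135 times the right one. Its promoter window is the one with a single TGACG core above, and the bearing of that core on these values was not tested.

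Wif1 (ENSMUSG00000020218, chromosome 10, 121033960 to 121100650), a secreted inhibitor that binds Wnt ligands directly, had 0.842 and 0.664 CPM in left 1037 and left 1039, against 4.87, 6.76 and 2.73 CPM in the right libraries in the same order of mice. The right libraries varied more among themselves than the left ones, and the groups did not overlap. Wif1 fell by 2.74 (SE 0.44, adjusted p = 0.00544). Within mice 1037 and 1039 the log2 ratio of CPM, left over right, was -2.53 and -2.04 for Wif1 and -2.16 and -3.18 for Sfrp5. The library labelled left 1038 separated these genes, with Wif1 at 7.27 CPM and Sfrp5 at 0.275 CPM. The summed markers of olfactory sensory neurons were lower on the left too, at 74.0 and 23.0 CPM in left 1037 and left 1039, against 251 to 317 CPM on the right, with 4 of the 6 markers called lower and none at 0, and their part in these differences was not tested. In bulk RNA fewer cells of a type and less RNA per cell cannot be told apart.

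Sfrp1 (ENSMUSG00000031548, chromosome 8, 23411502 to 23449632), which binds Wnt ligands through a Frizzled-like domain, had 36.2 and 37.4 CPM in left 1037 and left 1039, against 20.9, 22.9 and 24.3 CPM in the right libraries. The left libraries lay close together and above all right ones. It rose by 0.62 (SE 0.09, adjusted p = 0.00388), a left level 1.53 times the right one. Sfrp2 (ENSMUSG00000027996, chromosome 3, 83766321 to 83774316), a close relative, had 8.68 and 6.97 CPM on the left, against 3.78, 3.51 and 4.64 CPM on the right. It rose by 0.89 (SE 0.20, adjusted p = 0.0230), but this call was lost when left 1037 (0.73, adjusted p = 0.123), right 1037 or right 1038 was left out (range of adjusted p 0.0165 to 0.123 over the 12 alternatives). An antisense gene covers 16.1% of the exon bases of Sfrp2, and the sources used here do not say whether counting used the strand.

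The remaining binders did not pass the test. Sfrp4 had 8.03 CPM in left 1037 and 3.85 CPM in left 1039, against 3.64 to 3.89 CPM on the right, so that left 1037 stood alone above the other libraries. Its log2 fold change was 0.59 (SE 0.29, adjusted p = 0.245), -0.03 without left 1037 (adjusted p = 0.963) and 1.04 without left 1039 (adjusted p = 0.0244). Frzb, a secreted inhibitor abundant in ensheathing glia of the olfactory nerve, had 70.8 and 52.9 CPM on the left, against 71.6, 77.5 and 85.6 CPM on the right. Both left libraries were below the right ones, left 1037 by a narrow margin. Its log2 fold change was -0.42 (SE 0.12, adjusted p = 0.0542). Frzb was called lower in 5 of the 12 alternatives. These were the edgeR fit blocked by mouse (adjusted p = 0.0277), edgeR with no low-count filter (0.0480), DESeq2 (0.0122), limma-voom (0.0489) and edgeR without left 1037 (-0.64, adjusted p = 0.00535). Over all 12 the adjusted p ran from 0.00535 to 0.267. The other 6 ensheathing cell markers summed to 1471 and 1175 CPM in left 1037 and left 1039, against 1492 to 1619 CPM on the right, with 1 of 6 called lower and none at 0, and their part in the values of Frzb was not tested.

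Markers of leptomeninges and choroid plexus were also examined beside these genes. The 6 leptomeningeal markers summed to 436 and 351 CPM in left 1037 and left 1039, against 287 to 323 CPM on the right, and 1 of them, Igf2, was called higher. Slc6a13 was also higher in both left libraries but not called, while Dcn, Lum, Aldh1a2 and Col1a1 overlapped between the sides. Dcn had 79.9 CPM in left 1037 but only 44.7 CPM in left 1039, against 55.2 to 67.4 CPM on the right. Markers of choroid plexus summed to 188 CPM in left 1037 and 16.7 CPM in left 1039, against 13.8 to 16.1 CPM on the right, with 2 of 4, Ttr and Kl, called higher. Ttr made up most of the left 1037 sum, at 171 CPM. In left 1039 Ttr had 7.10 CPM, against 5.71 to 7.44 CPM on the right. Kl was higher in both left libraries, Clic6 was lower in both and not called, and Folr1 was not tested. None of either list was at 0 in the 5 libraries. Left 1037, high in both lists, also had the highest Sfrp2, Sfrp4, Wnt4, Wnt6 and Wnt16 of the 5 libraries. The same library was highest for many other members, among them Ctnnb1, Axin1, Apcdd1, Tcf7, Fzd1 and Lrp6. Igf2 had 230 and 214 CPM in left 1037 and left 1039, against 122 to 148 CPM on the right, so it was higher in both left libraries. Sfrp1 had a log2 fold change of 0.64 without left 1037 (adjusted p = 0.0107, at most 0.0185 over the 12 alternatives). The part of these tissues in the values of Sfrp1 and the other genes was not tested.

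**Figure D2:**
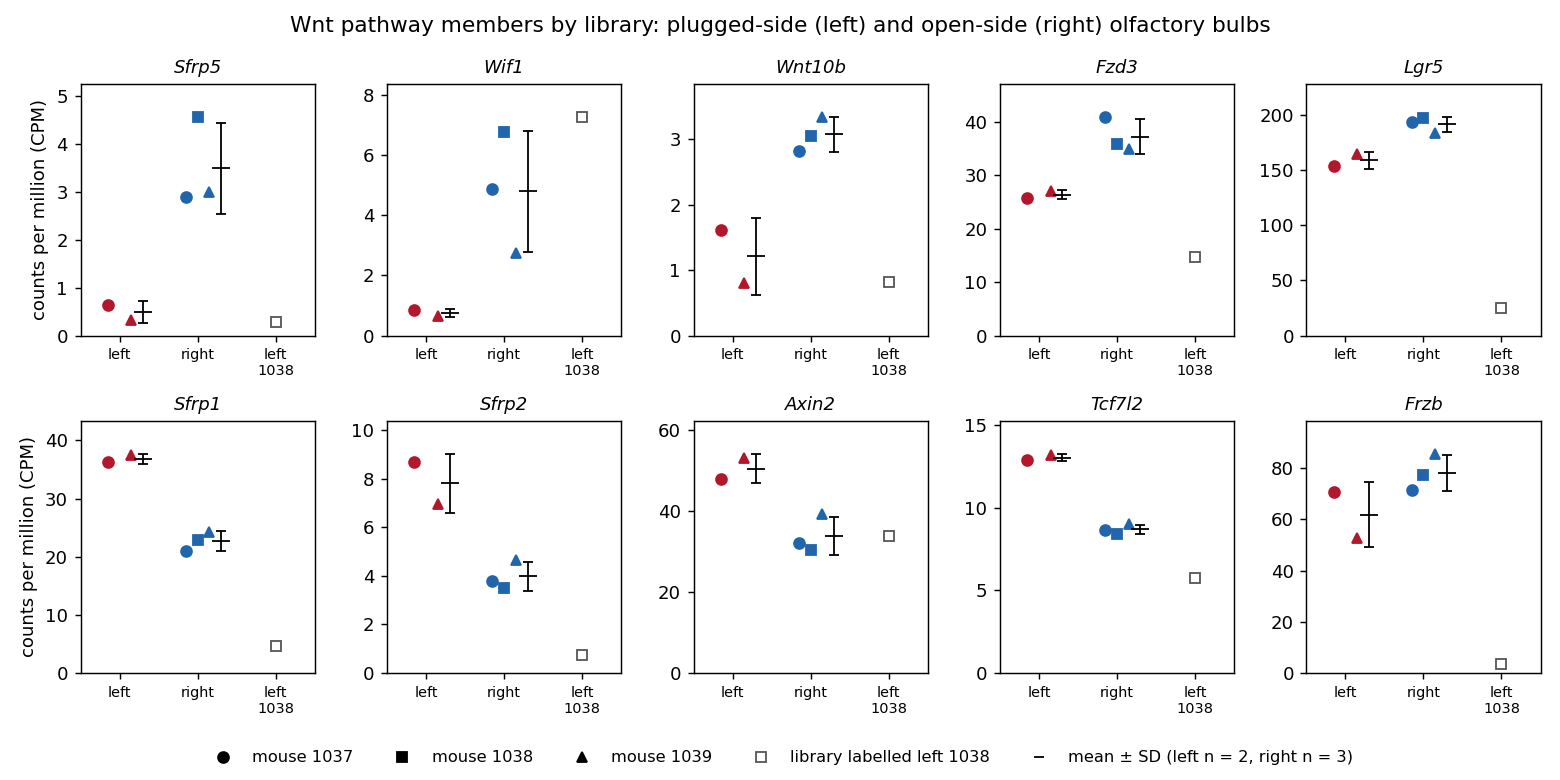
CPM (linear axes from 0) of the 9 called members and Frzb in each library: left bulbs, right bulbs, and the library labelled left 1038 apart; symbols mark the mouse, and bars the mean ± SD (left n = 2, right n = 3). The left libraries lie below every right library for Sfrp5, Wif1, Wnt10b, Fzd3, Lgr5 and Frzb and above every right library for Sfrp1, Sfrp2, Axin2 and Tcf7l2.

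**Figure D3:**
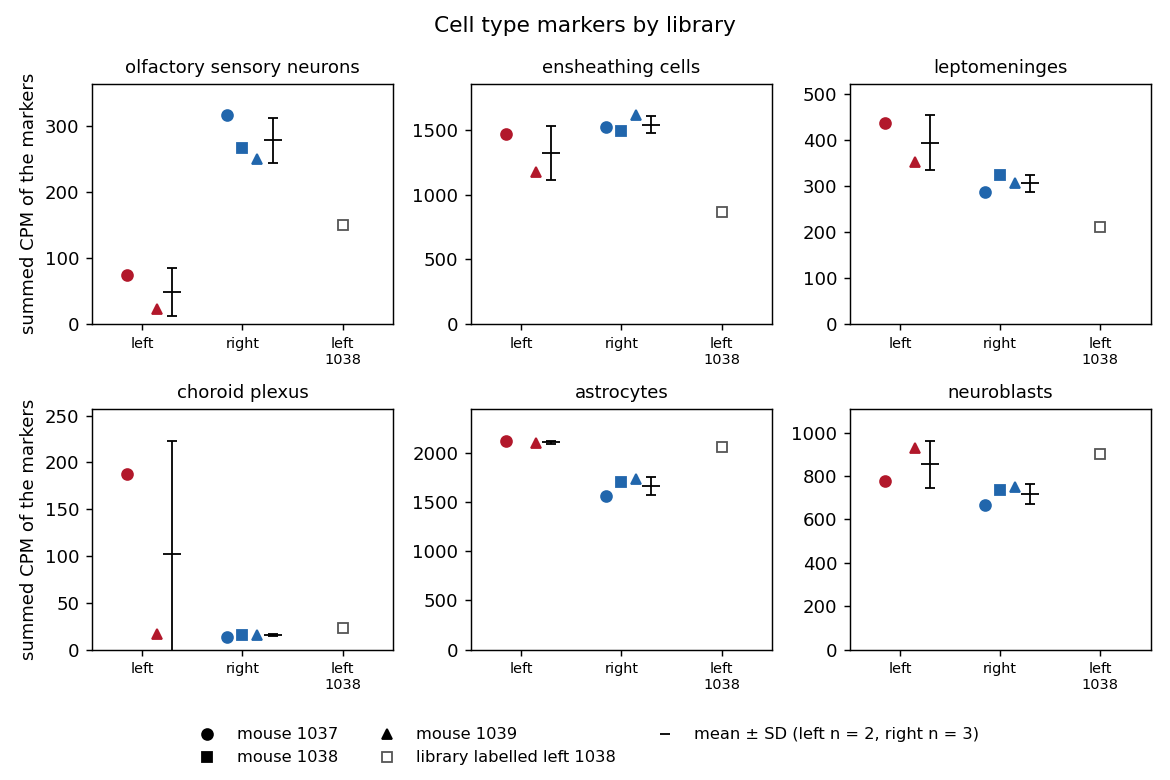
Summed CPM of the markers of 6 cell types per library, in the same layout, with Frzb left out of the ensheathing list. Sensory neuron markers are lower in both left libraries (74.0 and 23.0 CPM against 251 to 317 CPM), and choroid plexus markers stand out in left 1037 alone (188 CPM), where the lower end of the left SD bar falls below 0 and is not drawn.

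Of 12 ligands tested 1 fell and 0 rose, a share of 8.33% that is near the 9.62% of all genes. Wnt10b (ENSMUSG00000022996, chromosome 15, 98770712 to 98778150), a ligand of the beta-catenin branch, had 1.62 and 0.797 CPM in left 1037 and left 1039, against 2.82, 3.05 and 3.34 CPM on the right. Both left libraries were below all right ones, on 25 and 12 reads. It fell by 1.42 (SE 0.34, adjusted p = 0.0316). Of the 5 leave-outs the call held only in that of left 1037 (-2.01, adjusted p = 0.0215), and without left 1039 the value was -0.99 (adjusted p = 0.173, from 0.0209 over the 12 alternatives).

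The abundant ligands did not pass. Wnt7a, a ligand that neurons of the adult brain also use at synapses, had 45.0 and 44.5 CPM on the left, against 36.2, 39.1 and 35.8 CPM on the right, with a log2 fold change of 0.19 (SE 0.08, adjusted p = 0.171). Wnt5a, a ligand known mostly for signalling without beta-catenin, had 54.2 and 55.7 CPM on the left, against 44.4, 49.3 and 44.6 CPM on the right, and 0.17 (SE 0.08, adjusted p = 0.215). For both the left libraries were above all right ones. Such separation was common in CPM, since 33.2% of all genes tested had every left library above every right one and 13.2% the reverse, and of the 47 members tested 18 and 7 did. Scaled by total counts alone the median of all genes was 0.08 higher on the log2 scale than with the TMM scaling of the test.

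Wnt4 had 10.0 and 7.17 CPM on the left, against 5.39, 3.84 and 6.76 CPM on the right, with a log2 fold change of 0.61 (SE 0.24, adjusted p = 0.156). Wnt6, Wnt9a, Wnt10a, Wnt2b, Wnt3, Wnt5b and Wnt7b had log2 fold changes of 0.11 to 0.48 and Wnt9b of -0.31, with adjusted p from 0.284 to 0.789. The 19 ligands together held 154 and 150 CPM in left 1037 and left 1039, against 118, 124 and 129 CPM in the right libraries, a sum on which no test was run. Wnt16 was not tested, and had 29 reads in left 1037 and 9 in left 1039, against 7, 8 and 6 reads on the right, so that left 1037 stood apart.

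Among 12 receptor genes 1 fell and 0 rose, again 8.33% beside 9.62% of all genes. Fzd3 (ENSMUSG00000007989, chromosome 14, 65192449 to 65262463), a Frizzled known for planar polarity and axon guidance, had 25.8 and 27.0 CPM in left 1037 and left 1039, against 41.0, 35.8 and 34.9 CPM in the right libraries. The groups lay well apart in relation to their spread, at 26.4 ± 0.870 CPM in left bulbs (SD, n = 2) and 37.3 ± 3.29 CPM in right bulbs (SD, n = 3). It fell by 0.58 (SE 0.10, adjusted p = 0.00731), and was called in all 12 alternatives on these libraries (adjusted p at most 0.0296).

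The other Frizzled genes had smaller changes, none called. Fzd7 had 22.8 and 16.5 CPM on the left, against 14.3, 15.4 and 15.5 CPM on the right, with a log2 fold change of 0.30 (SE 0.15, adjusted p = 0.238), and 0.05 without left 1037. Fzd8 had 0.36, Fzd2 0.19 and Fzd1 0.14, and Fzd4, Fzd5 and Fzd6 lay between 0.04 and 0.12. Fzd9 had -0.18, and Fzd10, at 0.389 to 1.09 CPM in the 5 libraries, had -0.32. Lrp5, a co-receptor, had 15.9 and 12.1 CPM on the left, against 13.5, 17.7 and 20.3 CPM on the right, with -0.37 (SE 0.18, adjusted p = 0.244), and the groups overlapped. Its partner Lrp6 had 91.0 and 84.8 CPM on the left, against 89.0, 90.0 and 78.5 CPM on the right, with -0.05 (SE 0.08, adjusted p = 0.755).

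Lgr5 (ENSMUSG00000020140, chromosome 10, 115450311 to 115587780), a receptor for R-spondins best known as a stem cell marker in gut, had 153 and 164 CPM in left 1037 and left 1039, against 193, 197 and 183 CPM in the right libraries. The left libraries were below all right ones by a modest margin. It fell by 0.35 (SE 0.06, adjusted p = 0.00755), a left level 0.783 times the right one, and was called in all 12 alternatives (adjusted p at most 0.0379). Its relative Lgr4 had 79.9 and 93.5 CPM on the left, against 77.5, 82.9 and 84.1 CPM on the right, and a log2 fold change of 0.01 (SE 0.08, adjusted p = 0.969).

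Of the R-spondins, the secreted ligands of these receptors, none was called. Rspo3 had 29.7 and 25.6 CPM on the left, against 36.2, 31.1 and 29.7 CPM on the right, with -0.31 (SE 0.12, adjusted p = 0.132). Rspo2 had 24 and 13 reads on the left, against 6, 6 and 7 on the right, with 1.43 (SE 0.46, adjusted p = 0.0874), and was the highest value among all tested members. Rspo1 had -0.63 (SE 0.49), on 10 to 31 reads per library. Dkk3, the Dkk gene tested, had 25.8 and 27.7 CPM on the left, against 28.3, 28.8 and 29.4 CPM on the right, with -0.19 (SE 0.09, adjusted p = 0.214).

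**Figure D4:**
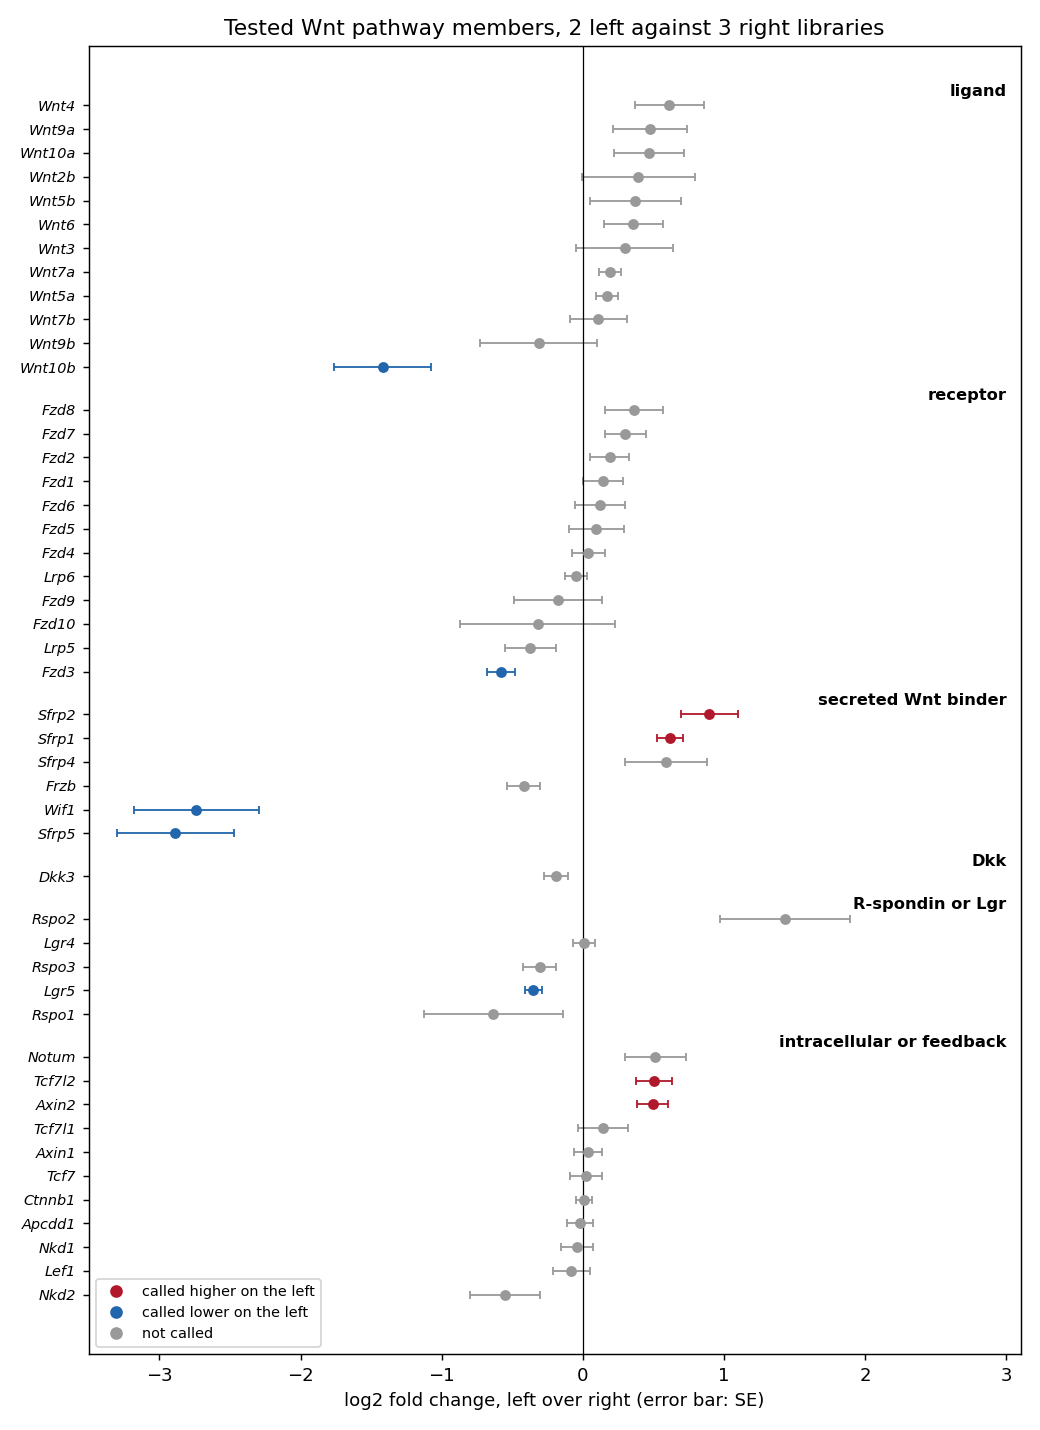
Log2 fold change, left over right, of the 47 tested members with its SE, by role, from the fit of 2 left and 3 right libraries; colour marks the call. Sfrp5 (-2.89) and Wif1 (-2.74) lie farthest below 0, while Sfrp1 and Sfrp2 of the same role lie above it.

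Axin2 (ENSMUSG00000000142, chromosome 11, 108920349 to 108950783), a scaffold of the complex that degrades beta-catenin and a widely used readout of Wnt signalling, had 47.9 and 53.0 CPM in left 1037 and left 1039, against 32.0, 30.4 and 39.2 CPM in the right libraries. Both left libraries were above all right ones. It rose by 0.49 (SE 0.11, adjusted p = 0.0229), a left level 1.41 times the right one. Leaving out left 1039 (0.43, adjusted p = 0.0952), right 1037 (0.47) or right 1038 (0.42) took the call away, and adjusted p ran from 0.00256 upwards over the 12 alternatives. Tcf7l2 (ENSMUSG00000024985, chromosome 19, 55741820 to 55933654), a nuclear partner of beta-catenin, had 12.9 and 13.2 CPM on the left, against 8.66, 8.41 and 9.01 CPM on the right. Its left libraries were nearly equal and above all right ones, and it rose by 0.50 (SE 0.13, adjusted p = 0.0399). With the mouse as a block the call ended (adjusted p = 0.0634), as it did by DESeq2 and in each of the 5 leave-outs (0.0226 to 0.132 over the 12 alternatives).

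The other feedback genes were not called. Notum, a secreted enzyme that inactivates Wnt ligands, had 5.64 and 5.84 CPM on the left, against 3.98, 3.05 and 4.37 CPM on the right, with 0.51 (SE 0.21, adjusted p = 0.171), and 29.4% of its exon bases lie under an antisense gene. Nkd1, an intracellular antagonist, had 25.5 and 22.0 CPM on the left, against 21.4, 22.7 and 25.6 CPM on the right, with -0.05 (SE 0.11, adjusted p = 0.850). Apcdd1, a membrane inhibitor, had 96.7 and 81.1 CPM on the left, against 78.8, 92.9 and 84.2 CPM on the right, with -0.02 (SE 0.09, adjusted p = 0.917). For both genes the groups overlapped.

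Nkd2, the relative of Nkd1, split the left libraries, with 14.8 CPM in left 1037 and 7.04 CPM in left 1039, against 14.2, 16.1 and 15.3 CPM on the right. Its log2 fold change was -0.55 (SE 0.25, adjusted p = 0.202), and -1.19 without left 1037 (adjusted p = 0.00373, in a range up to 0.782 over the 12 alternatives). The ensheathing cell markers given beside Frzb were likewise lowest in left 1039. Ctnnb1 had 500 and 495 CPM on the left, against 468, 475 and 460 CPM on the right, with 0.01 (SE 0.05, adjusted p = 0.951), and 759 of its exon bases overlap Ulk4 on the other strand. Lef1, a nuclear factor, had 12.7 and 11.5 CPM on the left, against 12.4, 12.7 and 11.3 CPM on the right, with -0.08 (SE 0.13, adjusted p = 0.755). Axin1, Tcf7 and Tcf7l1 had 0.04, 0.02 and 0.14.

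Astrocyte markers summed to 2117 and 2094 CPM in left 1037 and left 1039, against 1558 to 1735 CPM on the right. Of these 5, Gfap and Aqp4 were called higher, Gfap at 543 and 578 CPM, against 221 to 297 CPM. Gja1 (log2 fold change 0.14) was higher in both left libraries but not called. Slc1a3 (-0.02) and Aldh1l1 (-0.23) overlapped between the sides and were not called. Oligodendrocyte markers, of a lineage known to use Tcf7l2, summed to 1843 and 2203 CPM on the left, against 1773 to 2253 CPM on the right, with 0 of 5 called. None of either list was at 0, and their part in the values of Axin2, Tcf7l2 and Sfrp1 was not tested.

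Beyond the members, 62 other genes of the pathway were examined, from ligand secretion to targets, of which 56 were tested, 7 rose and 4 fell. That is 19.6% of those tested, beside 9.62% of all genes, with 3.16% of all genes called higher and 6.46% lower. The list was chosen with earlier results of these data known, which already gave Cd44 and Tpbg, so this share is no independent support. Wls, the carrier that brings Wnt ligands to the cell surface, had 107 and 106 CPM in left 1037 and left 1039, against 135, 125 and 125 CPM in the right libraries, and fell by 0.35 (SE 0.06, adjusted p = 0.00860). Lgr6, the remaining Lgr receptor for R-spondins, had 125 and 131 CPM on the left, against 181, 190 and 174 CPM on the right, and fell by 0.59 (SE 0.06, adjusted p = 9.58e-04). Lgr6, like Lgr5, was lower in both left libraries than in any right one. The 7 markers of granule and periglomerular interneurons summed to 2525 and 2926 CPM in left 1037 and left 1039, against 3300 to 3643 CPM on the right, with Gad1, Th and Sp8 called lower and none at 0. Dlx1 (log2 fold change -0.06), Dlx2 (0.02), Dlx5 (-0.03) and Meis2 (-0.17), the rest of that list, overlapped between the sides and were not called. The part of interneurons in the values of Lgr5, Lgr6 and Fzd3 was not tested.

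Among receptors and regulators outside the member list, Ror2, a receptor for Wnt5a, had 4.47 and 6.11 CPM on the left, against 2.12, 1.99 and 2.25 CPM on the right, and rose by 1.23 (SE 0.24, adjusted p = 0.0129). This call ended without left 1039 (adjusted p = 0.109, from 0.00700 over the 12 alternatives). Celsr1, a cadherin of planar polarity, had 13.0 and 14.0 CPM on the left, against 5.84, 6.62 and 7.85 CPM on the right, and rose by 0.92 (SE 0.16, adjusted p = 0.00694). Shisa3, an inhibitor that acts on Frizzled maturation, had 147 and 142 CPM on the left, against 88.4, 95.4 and 104 CPM on the right, and rose by 0.51. Apc2, a relative of the destruction complex protein Apc, rose by 0.37, and Kremen1, a receptor for Dkk proteins, rose by 0.36, a call that ended without left 1039 or any 1 right library (adjusted p up to 0.171, from 0.0158 over the 12 alternatives).

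Genes often listed as Wnt targets went both ways. Ccnd1, the cell cycle protein cyclin D1, had 15.2 and 11.5 CPM on the left, against 30.1, 30.1 and 27.0 CPM on the right, and fell by 1.20 (SE 0.13, adjusted p = 0.00113). Cd44, a membrane protein that binds hyaluronan, had 4.99 and 5.24 CPM on the left, against 1.28, 2.05 and 1.16 CPM on the right, and rose by 1.68 (SE 0.28, adjusted p = 0.00655). Tpbg, listed with the inhibitors and not the targets, is a membrane glycoprotein that inhibits Wnt signalling in zebrafish. It had 16.0 and 18.0 CPM on the left, against 29.6, 37.0 and 29.8 CPM on the right, and fell by 1.00 (SE 0.12, adjusted p = 0.00164). Of the 6 target genes tested, which leave out Axin2, 1 rose and 1 fell, and of 8 nuclear components 0 were called.

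The library labelled left 1038 lay below the range of the other 5 for 34 members, above it for 7 and inside it for 16. The 16 include Wnt3a, Wnt8a, Wnt8b and Dkk4, at 0 in every library, and no such count was made over all genes. For 10 members this library was over 4-fold below the range of the other 5 and for 2 over 4-fold above it, counting members over 2 CPM. Of the 13659 genes over 2 CPM in some library 5.62% were over 4-fold below and 2.57% over 4-fold above, and 44 members were among them. Frzb stood at 3.36 CPM in it, against 52.9 to 85.6 CPM in the others, a level 15.7 times lower than the lowest of them. Fzd2, Wnt10a, Wnt5a, Lgr5, Nkd2, Sfrp2, Tcf7, Apcdd1 and Sfrp1 were 4.48 to 8.76 times below. Wnt5a for instance had 6.86 CPM, against 44.4 to 55.7 CPM.

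Wnt3, a ligand of the beta-catenin branch, and its neighbour on chromosome 11, Wnt9b, went the other way. Wnt3 had 16.7 CPM in the library labelled left 1038, against 1.41 to 3.58 CPM in the others, and Wnt9b had 5.70 CPM, against 0.648 to 1.06 CPM. Fzd1 with 75.6 CPM and Fzd7 with 74.7 CPM were 3.99 and 3.27 times above the highest of the others, and Wnt7a had 77.1 CPM, against 35.8 to 45.0 CPM. Cerebellar granule cell markers summed to 5322 CPM in this library, against 211 to 276 CPM in the others, and Purkinje cell markers to 2111 CPM, against 27.4 to 37.5 CPM. With this library included edgeR called 0 of 46 members tested and 0 of 14209 genes (0% called), with 3 members and 1196 genes at an unadjusted p under 0.05. DESeq2 on the same 6 libraries called 186 genes and 2 members, Sfrp5 and Wnt10b, both lower (adjusted p = 3.44e-06 and 0.0175).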

How the data were processed

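The deposited table gives each gene a read count in every library, as whole numbers that were not normalized, per the file headers. Beside it the authors deposited RPKM values and the length of each gene. The RPKM follow from the counts and that length within 3.6e-11, and the length lies within 1 base of the genomic span, introns included, for 78.41% of genes, so the RPKM were not used. The submitters' processing notes name TopHat2, cutadapt 1.2.1, DESeq 1.18.0, HTSeq 0.6.1p2 and the build GRCm38, without saying what each was used for. Strand use and the treatment of multiply mapped reads are not given in the sources used here. Of 22095 identifiers 21852 matched a symbol, and coordinates and exon lengths are from GENCODE vM21 on GRCm38.

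Side was tested with edgeR 4.0.16 (quasi-likelihood, TMM, filterByExpr, side as the only term) in R 4.3.3, Benjamini-Hochberg over all genes, called at 0.05, two-sided. The SE is the absolute log2 fold change over the square root of F. The fit was tested on simulated data. The alternatives were RLE or total-count scaling, no filter or 1 CPM in 2 libraries, DESeq2 1.42.0, limma-voom (limma 3.58.1), the mouse as a block, all 6 libraries, and leaving out each of the 5 libraries. The 6-library fits with the block and with DESeq2 were added after seeing the data. A library left alone in its group is assumed to vary like the other group.

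The labels tie both bulbs of a mouse by its number, so the bulbs are paired by animal, and the deviations of same-numbered libraries correlated at 0.08, 0.05 and 0.13 in mice 1037, 1038 and 1039 over 6 libraries, and at 0.28 over the 4 libraries of mice 1037 and 1039. The mouse is the replicate, and nothing says how the libraries were batched. With the block the side term rests on mice 1037 and 1039.

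The members, the pathway list, the marker lists and the tests were chosen with earlier results of these data known, which already gave Sfrp5, Wif1, Cd44, Tpbg and some markers, so these are no independent support. Named were all called members, the 12 uncalled ones with the smallest p, set genes such as Ctnnb1 and Axin2, the 2 highest per role, those far outside the range in the library labelled left 1038, and up to 10 called pathway genes. Lgr4, Axin1, Wnt16 and other members named beside them, and the genes of the printed windows, were chosen after their values were seen. Of 16 marker lists, markers were called lower for sensory neurons (4), interneurons (3), ensheathing cells, oligodendrocyte precursors and endothelial cells (1 each), and higher for mitral and tufted cells, neuroblasts, astrocytes and choroid plexus (2 each), cerebellar granule cells and leptomeninges (1 each), and none for Purkinje cells, cortical pyramidal neurons, oligodendrocytes, microglia and mural cells.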

Additional observations from a re-analysis of the deposited data

Results flagged for a closer look

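Wnt3 at 16.7 CPM and Wnt9b at 5.70 CPM in the library labelled left 1038 were noted because they are signals in a library outside the comparison, over 4-fold above the range of the other 5 libraries, which was 1.41 to 3.58 CPM for Wnt3 and 0.648 to 1.06 CPM for Wnt9b. The right libraries alone had 1.41 to 3.07 CPM and 0.834 to 1.06 CPM. They rest on 244 and 83 reads. The 2 genes are neighbours on chromosome 11, and their spans do not overlap. Groups of 2 and 3 libraries are too small for a check of single outlying libraries.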

How the results depend on the processing

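With the mouse as a replicate block 3 members were called higher and 6 lower, and the block ended the call of Tcf7l2, added that of Frzb and changed no other member's call. Among the other pathway genes it gave 7 higher and 6 lower, against 7 and 4 without it. Leaving out 1 of the 5 libraries gave 1 to 3 members higher, against 4, and 4 to 7 lower, against 5. It gave 5 to 6 other pathway genes higher and 4 to 5 lower, and 172 to 366 genes in all higher and 479 to 768 lower, against 456 and 931. Scaling by total counts gave 975 genes higher and 589 lower. Fzd3, Lgr5, Sfrp1, Sfrp5 and Wif1 were called in all 12 five-library alternatives.

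With all 6 libraries edgeR called 0 members higher and 0 lower, 0 and 0 other pathway genes, and 0 and 0 genes in all, at an unadjusted p under 0.05 for 3 members and 1196 genes. In 2 fits added after seeing the data, 6 libraries with the replicate block gave 0 and 0 members and 6 libraries with DESeq2 gave 0 higher and 2 lower.

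The sign of some log2 fold changes, left over right, turned. With 6 libraries it turned for Lgr4 (-0.0553), Ctnnb1 (-0.0399), Tcf7 (-0.415), Wnt10a (-0.0559), Wnt2b (-0.113), Wnt5a (-0.316), Wnt7b (-0.08), Wnt9b (1.36), Fzd10 (0.364), Fzd2 (-0.328), Fzd4 (-0.0023), Fzd5 (-0.275), Fzd6 (-0.0751) and Shisa3 (-0.0686). With 6 libraries and the block it turned for Sfrp1 (-0.248) and Sfrp2 (-0.037). With the block on 5 libraries it turned for Apcdd1 (0.0398), Wnt7b (-0.052) and Fzd9 (0.0037). With total counts it turned for Apcdd1 (0.0605), Lef1 (0.000243), Nkd1 (0.0365) and Lrp6 (0.0341). Over the leave-outs values of both signs were seen for Lgr4 (-0.0981 to 0.117), Apcdd1 (-0.153 to 0.112), Axin1 (-0.0254 to 0.11), Ctnnb1 (-0.00676 to 0.0275), Nkd1 (-0.154 to 0.0684), Tcf7 (-0.0387 to 0.0953), Wnt7b (-0.0511 to 0.302), Fzd10 (-1.12 to 0.206), Fzd4 (-0.0569 to 0.138), Fzd6 (-0.0368 to 0.278), Fzd9 (-0.452 to 0.0675), Lrp6 (-0.11 to 0.0129) and Sfrp4 (-0.0344 to 1.04). The cause was not tested. Of the genes whose sign turned, Sfrp1, Sfrp2 and Shisa3 were called in the 5-library fit. Depth limits members with few reads, such as Sfrp5 with 10 and 5 reads in left 1037 and left 1039, Fzd10 with 6 and 15, and Wnt9b with 10 and 14.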
